A study of Mus musculus with 4 samples.

Results

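The transcripts of mitochondrial fatty acid oxidation were followed in 3T3-F442A adipocytes, fat cells formed in culture from a mouse preadipocyte line, with Trpv4 targeted by a hairpin or not. The genes were the carnitine palmitoyltransferases Cpt1a, Cpt1b and Cpt2, the acyl-CoA dehydrogenases Acadm, Acadl, Acadvl and Acads, the trifunctional protein subunits Hadha and Hadhb, and the thiolase Acaa2. They were taken by symbol, as every probe set of the Affymetrix mouse array whose annotation names that 1 gene only, which gave 16 of the 22626 probe sets. These 16 covered 9 of the 10 genes. The 1 probe set whose annotation includes Cpt1b names 3 genes, so Cpt1b, the muscle-type isoform, was not analysed here.

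Both groups carried a stably integrated hairpin, and the only difference that the labels give is its target. The 2 arrays labelled shGFP came from cells with a control hairpin against green fluorescent protein, a gene that mouse cells lack, and the 2 arrays labelled shTRPV4 came from cells with a hairpin against the calcium-permeable channel Trpv4. In both, retrovirus was applied to preadipocytes, infected cells were kept with puromycin at 2 ug/ml for 2 days, and confluent cultures were differentiated over 8 days in 850 nM insulin, with rosiglitazone, a PPAR gamma agonist, on the first 2 days. The labels do not say how many hairpins or infections stand behind a group, or whether the 2 arrays of a group are separate cultures, so the p-values cover the spread among these 4 arrays alone, and that spread could be purely technical. All intensities below are the deposited linear values of single arrays, and all differences are shTRPV4 minus shGFP, fitted with limma over all probe sets to quantile-normalized log2(intensity + 16) values, where 16 is an offset that damps differences of dim probe sets.

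Long-chain fatty acids enter mitochondria as carnitine esters. CPT1 on the outer membrane makes the ester, and malonyl-CoA, the first intermediate of fatty acid synthesis, inhibits it, which makes this step the main control point of the pathway. CPT2 on the inner membrane returns the acyl group to coenzyme A, and repeated rounds of dehydrogenation, hydration, a second dehydrogenation and thiolysis then release acetyl-CoA. White fat cells mainly store fatty acids and oxidise less of them than muscle, liver or brown fat does, and many of these genes are textbook targets of the PPAR nuclear receptors.

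Of the 10 genes, Cpt1b had no promoter entry in the RefSeq table for GRCm38.p6, and Acaa2 lies on a chromosome that was left out here. The promoter windows of the other 8 each run from 250 bases before to 50 after an annotated start site. Those of Cpt1a and Cpt2 are shown because these steps of the carnitine shuttle had differences of opposite sign, of which those of Cpt1a passed the test on 2 of 3 probe sets and those of Cpt2 on none. Those of Hadha and Hadhb are shown because the subunits of 1 enzyme are transcribed away from each other from neighbouring start sites, with 272 bases between the start sites. Capitals mark matches on either strand to AGGTCA, the half-site bound by many nuclear receptors, and to the GC box GGGCGG. Positions are counted from the start site, with negative numbers upstream of it.
Cpt1a, chr19:3323051-3323350, plus strand: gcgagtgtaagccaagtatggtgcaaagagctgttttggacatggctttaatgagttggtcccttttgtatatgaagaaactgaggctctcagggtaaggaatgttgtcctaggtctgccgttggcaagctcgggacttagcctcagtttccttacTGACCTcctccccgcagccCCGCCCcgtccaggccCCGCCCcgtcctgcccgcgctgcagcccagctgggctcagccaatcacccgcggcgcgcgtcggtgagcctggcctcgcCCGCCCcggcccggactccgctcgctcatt
Cpt2, chr4:107923540-107923839, minus strand: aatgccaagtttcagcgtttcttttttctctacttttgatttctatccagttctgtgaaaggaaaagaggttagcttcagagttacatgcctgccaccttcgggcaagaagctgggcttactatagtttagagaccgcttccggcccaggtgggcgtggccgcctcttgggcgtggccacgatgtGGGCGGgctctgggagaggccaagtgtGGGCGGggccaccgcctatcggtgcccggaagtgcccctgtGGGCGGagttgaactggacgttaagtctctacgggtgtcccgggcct
Hadha, chr5:30154931-30155230, minus strand: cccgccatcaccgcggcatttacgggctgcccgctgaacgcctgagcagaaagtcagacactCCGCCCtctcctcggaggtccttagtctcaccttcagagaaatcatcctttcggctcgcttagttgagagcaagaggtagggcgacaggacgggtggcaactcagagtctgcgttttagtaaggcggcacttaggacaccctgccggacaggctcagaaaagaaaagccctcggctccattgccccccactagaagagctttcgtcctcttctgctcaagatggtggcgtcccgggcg
Hadhb, chr5:30155003-30155302, plus strand: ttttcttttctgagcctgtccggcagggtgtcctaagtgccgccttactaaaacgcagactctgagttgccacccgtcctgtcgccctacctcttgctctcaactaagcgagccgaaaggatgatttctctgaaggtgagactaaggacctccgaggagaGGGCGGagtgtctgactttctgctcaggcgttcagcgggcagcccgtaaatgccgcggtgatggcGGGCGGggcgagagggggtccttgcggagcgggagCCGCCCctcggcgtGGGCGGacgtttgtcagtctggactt

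The Hadha and Hadhb windows share 228 bases, read from opposite strands. The shared stretch holds 1 GC box, which lies at -188 to -183 for Hadha and at -90 to -85 for Hadhb. The Cpt1a window holds 1 half-site, at -94 to -89 on the opposite strand, and 3 GC boxes. The Cpt2 window holds 3 GC boxes. Over the 8 genes, 3 windows had a half-site (Cpt1a, Acadm and Acadvl), against 16.3% of 32851 windows of the same length, and 6 had a GC box, against 35.7%. The direct repeat AGGTCANAGGTCA, the classical PPAR element, was in 0 of the 8 windows and in 0.0396% of all windows, and the extended half-site TNAAGGTCA, in which the plain half-site is contained, was in 0 and in 1.28%. These are letter matches only, and elements outside the windows were not searched.

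Cpt1a, the liver-type isoform of the first carnitine palmitoyltransferase, was lower in the arrays labelled shTRPV4, while most probe sets of the enzymes that act after it had small positive differences that did not pass the test. Of the 16 probe sets, 2 fell and 0 rose at a limma adjusted p under 0.05, both of them probe sets of Cpt1a, and 14 did not pass. Over the whole array 5.36% of probe sets fell and 4.54% rose, 9.9% together, so the count of 2 in 16 was near the background share in this setting. Some other settings also called probe sets of other members, all higher, as given below. The array's split of 1027 higher and 1213 lower moved with scaling, to 600 and 1161 with the values as deposited and to 1662 and 1141 with median centring. At an unadjusted limma p under 0.05 there were 3 lower and 6 higher, 9 of 16, against 30.6% of all probe sets. That share includes dim probe sets, where few pass. The array had 6928 such probe sets, and 5918 with those under the 50th percentile of mean level, about 50% of the array, left out. In that setting 11 of the 14 members left had such a p. The share among probe sets as bright as most members is thus higher than 30.6%, and no share by direction is given here. The median difference of the 16 was 0.20, beside 0.02 over all probe sets, and 11 of them (68.8%) had a positive difference, beside 52.5%. After normalization the arrays of the 2 groups did not overlap for any of the 16, with 11 higher and 5 lower, in an array where 58.5% of all probe sets had no overlap.

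**Figure D1:**
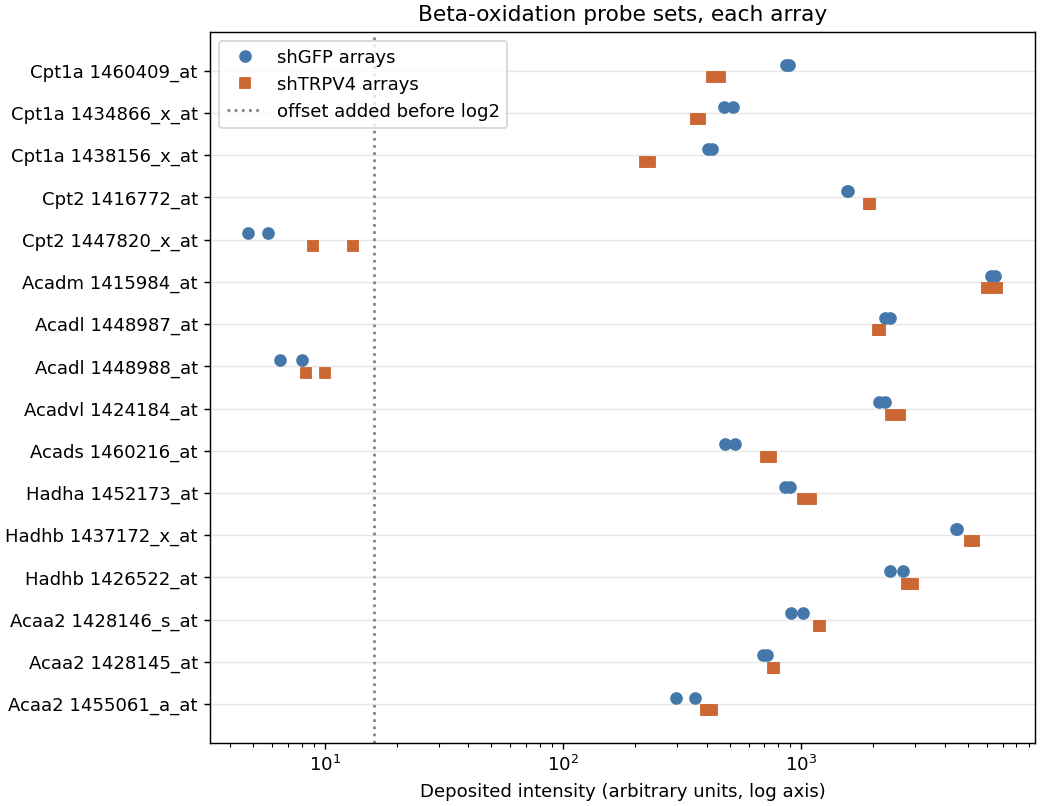
Deposited intensity (log axis) of the 16 probe sets on each array, with circles for the 2 arrays labelled shGFP and squares for the 2 labelled shTRPV4, and a dotted line at the offset of 16. The squares of all 3 Cpt1a probe sets lie left of the circles, those of Cpt2, Acads, Acadvl, Hadha, Hadhb and Acaa2 lie right of them, and 1 probe set each of Cpt2 and Acadl lies below the offset on every array.

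The brightest Cpt1a probe set, 1460409_at, had intensities of 890.6 and 860.4 under shGFP and of 421.3 and 454.0 under shTRPV4. Both shTRPV4 arrays were far below both shGFP arrays, and the gap between groups was much wider than the gap between arrays of a group. The level fell by 0.93 on the log2 scale, 1.91-fold (SE 0.08, 95% interval -1.16 to -0.70, adjusted p = 0.020). A further Cpt1a probe set, 1438156_x_at, read 404.9 and 421.9 against 220.1 and 231.6, again without overlap, a difference of -0.77 (SE 0.06, interval -0.94 to -0.60, adjusted p = 0.019). The third, 1434866_x_at, had the smallest difference and did not pass. It read 474.7 and 516.1 against 374.1 and 360.7 (-0.36, SE 0.07, interval -0.55 to -0.16, adjusted p = 0.061). Probe sets ending in _x_at can also read related transcripts, which the suffix of 1460409_at does not imply. Both calls held under all 7 alternatives of scaling, offset, filter and spread model, but not with any 1 of the 4 arrays left out (adjusted p of 0.127 to 0.198 for each, with differences of -0.996 to -0.865 for 1460409_at and -0.78 to -0.76 for 1438156_x_at) or with a replicate block (adjusted p of 0.077 and 0.076).

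Cpt2, which completes the transfer at the inner membrane, did not follow Cpt1a. Its probe set 1416772_at had intensities of 1562 and 1564 under shGFP and of 1949.9 and 1919 under shTRPV4. The arrays of a group were nearly equal and the groups were apart, with a difference of 0.34 (SE 0.07, interval 0.14 to 0.53) that missed the threshold (adjusted p = 0.066) and passed it under 5 of the 7 alternatives (adjusted p from 0.00884 to 0.102). The other Cpt2 probe set, 1447820_x_at, read 5.76 and 4.74 against 13.1 and 8.91, below the offset on every array. Its size is therefore set largely by the offset (0.35, adjusted p = 0.12, between 0.12 and 0.95 with offsets of 64 and 1).

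Within an array, a shift common to all log2 values cancels in the difference between a Cpt1a and a Cpt2 probe set. Quantile normalization and the offset do not cancel fully. From shGFP to shTRPV4 the difference between Cpt1a 1460409_at and Cpt2 1416772_at fell by 1.27, with SDs of 0.06 and 0.10 (n = 2 in each group). With the Cpt1a probe sets 1438156_x_at and 1434866_x_at it fell by 1.11 and 0.69. In each case both shTRPV4 arrays lay below both shGFP arrays. For each of these 3 pairs the exact two-sided permutation p was 0.333 (0.444 after Benjamini-Hochberg adjustment over the 4 pairs compared), which is the smallest that 2 arrays against 2 can give, so this design cannot pass 0.05 in that test.

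**Figure D2:**
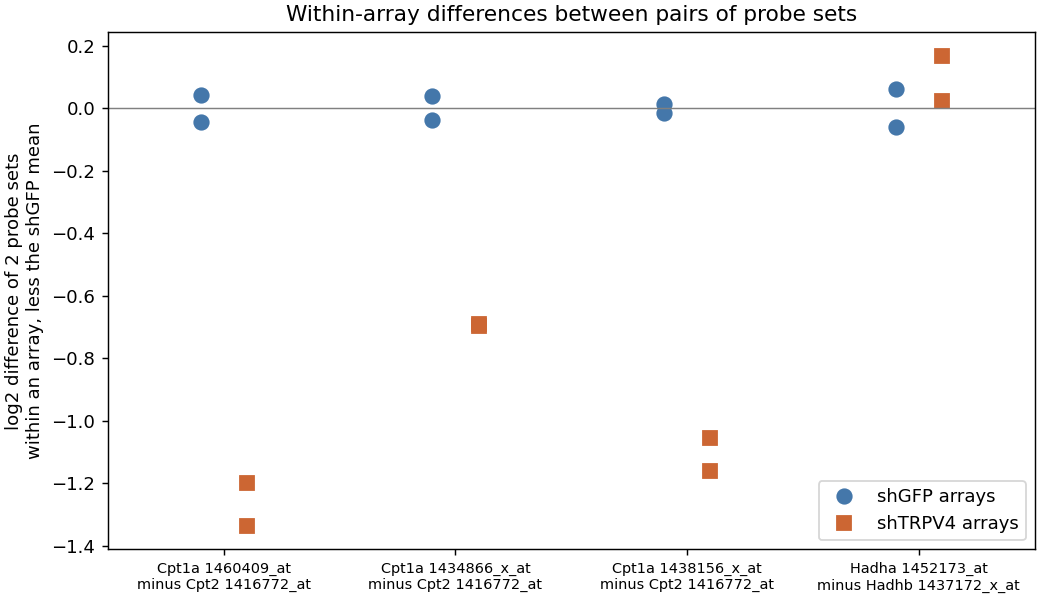
Log2 difference between 2 probe sets on the same array, less its mean over the shGFP arrays, for the 3 Cpt1a probe sets each minus Cpt2 1416772_at, and for Hadha minus Hadhb; circles are shGFP arrays and squares shTRPV4 arrays. The squares lie 1.27, 0.69 and 1.11 below the shGFP mean for the Cpt1a probe sets 1460409_at, 1434866_x_at and 1438156_x_at, and the groups overlap for Hadha against Hadhb.

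The 4 acyl-CoA dehydrogenases, which make the first double bond and differ in the chain length they prefer, had differences of both signs, and none passed. Acads, the short-chain enzyme, had the largest positive difference of all 16 probe sets. It had intensities of 528.6 and 480.2 under shGFP and of 713.4 and 745.1 under shTRPV4, higher on both (0.57, SE 0.10, interval 0.29 to 0.84). Its adjusted p of 0.0507 lay just outside the threshold, and it passed under 6 of the 7 alternatives (adjusted p from 0.00439 to 0.0878), the exception being an offset of 1. Acadvl, the very long-chain enzyme of the inner membrane, read 2254 and 2118 against 2377 and 2594, higher on both shTRPV4 arrays by little more than the arrays of a group differed (0.20, SE 0.08, interval -0.03 to 0.44, adjusted p = 0.21).

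Acadm, the medium-chain enzyme, had intensities of 6251 and 6508 under shGFP and of 6010.0 and 6636 under shTRPV4. The deposited values of the groups overlapped, the only one of the 16 for which they did. Its difference was -0.07 (SE 0.07, interval -0.26 to 0.12, adjusted p = 0.56) and turned to 0.08 with median centring. Acadl, the long-chain enzyme, read 2363 and 2252 against 2089.9 and 2144 on 1448987_at, slightly lower on both shTRPV4 arrays (-0.09, SE 0.08, interval -0.31 to 0.13, adjusted p = 0.50). Its other probe set, 1448988_at, read 7.98 and 6.49 against 8.33 and 10.0, below the offset on every array, with the opposite sign (0.12, adjusted p = 0.39). The intervals of Acadm and of Acadl 1448987_at lie wholly above -0.93, the difference of Cpt1a 1460409_at. Both overlap the interval of Cpt1a 1434866_x_at, -0.55 to -0.16.

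The trifunctional protein carries out the next 3 steps on long chains, with the hydratase and dehydrogenase on the alpha subunit and the thiolase on the beta subunit. Hadha, the alpha subunit gene, had intensities of 898.1 and 857.5 under shGFP and of 1018 and 1101 under shTRPV4, higher on both (0.30, SE 0.08, interval 0.06 to 0.53, adjusted p = 0.11). Hadhb, the beta subunit gene, read 4471 and 4519 against 5296 and 5082 on 1437172_x_at (0.20, SE 0.07, interval 0.0048 to 0.39, adjusted p = 0.16) and 2680.5 and 2366 against 2768 and 2929 on 1426522_at (0.20, SE 0.11, adjusted p = 0.30). Both subunits were thus higher on each shTRPV4 array than on either shGFP array, and none of their 3 probe sets passed. The change of Hadha relative to Hadhb 1437172_x_at within an array was 0.10, with SDs of 0.09 and 0.10 (n = 2 each), and the groups overlapped (exact two-sided permutation p = 0.667, also after adjustment over the 4 pairs).

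Acaa2, the soluble thiolase that cuts shorter acyl chains in the matrix, was measured by 3 probe sets, all positive. The probe set 1428146_s_at read 1019.6 and 906.0 against 1202 and 1191 (0.35, SE 0.11, adjusted p = 0.14). On 1428145_at the values were 689.1 and 715.7 against 767.4 and 757.3 (0.16, SE 0.07, adjusted p = 0.21), and on 1455061_a_at they were 356.6 and 296.4 against 396.5 and 422.3 (0.37, SE 0.13, adjusted p = 0.17). On each of the 3 the lower shTRPV4 array was above the higher shGFP array. Across the 9 genes, every probe set was positive for 6 (Cpt2, Acadvl, Acads, Hadha, Hadhb and Acaa2), every one was negative for 2 (Cpt1a and Acadm), and Acadl had both signs.

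**Figure D3:**
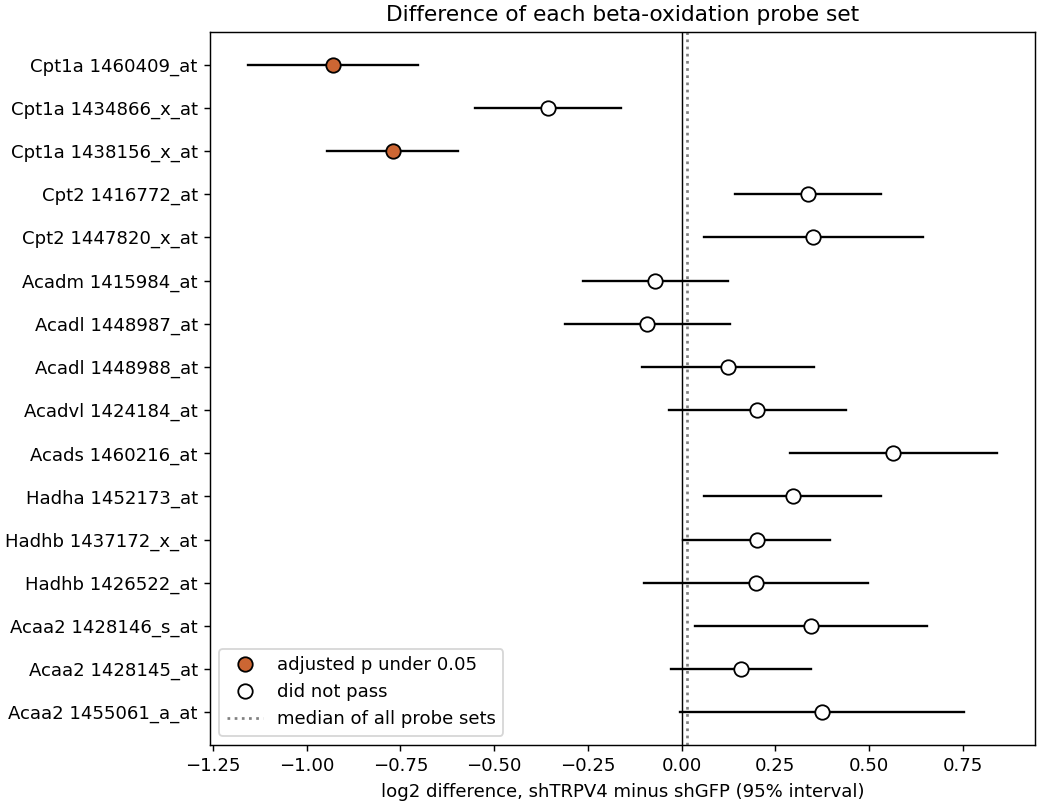
Log2 difference (shTRPV4 minus shGFP) of the 16 probe sets with 95% limma intervals; filled points have an adjusted p under 0.05, and the dotted line is the median of all probe sets, 0.02. The 3 Cpt1a intervals lie wholly below 0, and Acads has the highest estimate, 0.57.

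The genes around these steps were taken from 9 lists of 99 genes, of which 82 had a single-gene probe set, with each gene represented by its brightest one. Averaging the probe sets of a gene instead gave 25 called genes in place of 20. Of the 82, 18 rose, 2 fell and 62 did not pass, while at an unadjusted p under 0.05 there were 41 higher and 6 lower. None of the 20 calls held with any 1 array left out or with a replicate block. Over the 12393 genes of the array 5.33% rose and 6% fell at the adjusted threshold, with a median difference of 0.02. For the unadjusted threshold the only background is 30.6% of all probe sets, dim ones included, in both directions together. The unadjusted counts of the single lists and of the markers therefore have no background share by direction. Of 14 other enzymes of mitochondrial fatty acid oxidation, 1 rose and 0 fell in limma, with a median of 0.20 and 10 positive, and at an unadjusted p under 0.05 there were 7 higher and 2 lower. The gene that rose was Acsf2, an acyl-CoA synthetase, from 47.5 and 35.6 to 105.7 and 99.7 (1.11, SE 0.13, adjusted p = 0.029; not passed with an offset of 1). Of the 3 genes that pass electrons from the dehydrogenases to the respiratory chain, 0 passed in limma and 2 were higher at an unadjusted p under 0.05. The flavoprotein subunits Etfa and Etfb differed by 0.25 (adjusted p = 0.092) and 0.14 (adjusted p = 0.30), and their oxidoreductase Etfdh by 0.35 (adjusted p = 0.11).

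Some genes of carnitine transport and synthesis rose. Of 7 genes for carnitine transport and the other carnitine acyltransferases, 3 rose and 0 fell in limma, with a median of 0.41, and 4 were higher and 1 lower at an unadjusted p under 0.05. Slc22a5, the high-affinity carnitine importer of the plasma membrane, rose from 416.9 and 443.8 to 546.2 and 565.6 (0.41, SE 0.06, adjusted p = 0.040; not passed with the values as deposited or an offset of 1), and its other probe set did not pass (0.40, adjusted p = 0.12). Slc22a4, a related transporter best known for ergothioneine, rose by 0.98 (SE 0.07, adjusted p = 0.017). Slc25a29, a mitochondrial carrier now known mainly for basic amino acids, rose from 119.8 and 131.3 to 321.4 and 325.7 (1.34, SE 0.07, adjusted p = 0.015) on its brightest probe set and by 1.25 on 1 other, while its remaining 3 probe sets did not pass. Slc25a20, the carrier that exchanges acylcarnitine for carnitine between the CPT1 and CPT2 steps, read 827.4 and 737.3 against 834.9 and 884.0 and did not pass (0.16, interval -0.14 to 0.46, adjusted p = 0.39), nor did the carnitine acetyltransferase Crat (0.67, SE 0.14, adjusted p = 0.070). Of 5 carnitine synthesis genes, 1 rose and 0 fell in limma, with a median of 0.33, and 2 were higher and 0 lower at an unadjusted p under 0.05. Aldh9a1, the dehydrogenase of that route, rose from 2175 and 2434 to 3951 and 4069.5 (0.81, SE 0.07, adjusted p = 0.021; not passed with an offset of 1).

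Malonyl-CoA, the inhibitor of CPT1, is made by the acetyl-CoA carboxylases Acaca and Acacb and removed by the decarboxylase Mlycd, and genes on both sides rose. Of the 8 genes measured on this list, 3 rose and 0 fell in limma, with a median of 0.20, and the same counts held at an unadjusted p under 0.05. Mlycd rose from 158.2 and 170.1 to 269.4 and 269.2 (0.73, SE 0.06, adjusted p = 0.020). Acacb, the carboxylase of the outer mitochondrial membrane, rose from 39.0 and 47.2 to 83.5 and 71.4 (0.74, SE 0.12, adjusted p = 0.046; not passed with the values as deposited or an offset of 1). Prkag2, a regulatory subunit of the kinase AMPK that inactivates both carboxylases, rose by 0.82 (SE 0.11, adjusted p = 0.034; not passed with an offset of 1). Acaca read 22.9 and 19.0 against 16.7 and 21.5, around the offset (-0.06, adjusted p = 0.79).

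Among 15 nuclear receptors and coregulators of fatty acid oxidation, 6 rose and 0 fell in limma, with a median of 0.27, and 9 were higher and 0 lower at an unadjusted p under 0.05. The largest was the coactivator Ppargc1b (1.15, SE 0.07, adjusted p = 0.015), then Nrip1, a corepressor of oxidative genes, from 1216 and 1191 to 2400.2 and 2514 (1.04, SE 0.07, adjusted p = 0.016). The others were the liver X receptor Nr1h3 (0.66, adjusted p = 0.028), the mitochondrial deacetylase Sirt3 (0.64, adjusted p = 0.025), the phosphatidate phosphatase and coactivator Lpin1 (0.62, adjusted p = 0.033) and Pparg, the fat cell PPAR (0.45, adjusted p = 0.042). Those 4 did not pass with an offset of 1, and Pparg did not with the values as deposited. Ppara, the PPAR most tied to fatty acid oxidation, read 43.4 and 48.3 against 58.1 and 48.1 (0.22, adjusted p = 0.24). Ppard read at most 7.21 on any array, below the offset (0.12, adjusted p = 0.34), and the probe sets of the coactivator Ppargc1a disagreed. Its brightest, which stands for it in the counts, did not pass (0.27, adjusted p = 0.48), nor did 1 other (0.24, adjusted p = 0.46), while the other 3 of its 5, dimmer ones, rose by 1.24, 1.23 and 0.81 (adjusted p = 0.017, 0.022 and 0.026).

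Other PPAR-responsive genes of fatty acid use were split: of 10 measured, 1 rose and 2 fell, with a median of 0.13. Acot1, a cytosolic acyl-CoA thioesterase, fell from 650.0 and 683.4 to 311.3 and 329.6 (-0.97, SE 0.06, adjusted p = 0.016), on a probe set that may also read its close relatives. Angptl4, a secreted inhibitor of lipoprotein lipase, fell from 6068 and 6863 to 4317 and 4741 (-0.54, SE 0.08, adjusted p = 0.042; not passed with the values as deposited, median centring or an offset of 1), and its other probe set did not pass (-0.32, adjusted p = 0.091). Ucp3, a mitochondrial uncoupling protein, rose from 56.2 and 54.7 to 166.8 and 167.2 (1.42, SE 0.07, adjusted p = 0.015), with 0.52 on its other probe set (adjusted p = 0.073). Pdk4, the kinase that turns pyruvate dehydrogenase off, read 441.97 and 444.77 against 473.1 and 439.2, with overlapping groups (0.10, interval -0.15 to 0.34, adjusted p = 0.52).

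**Figure D4:**
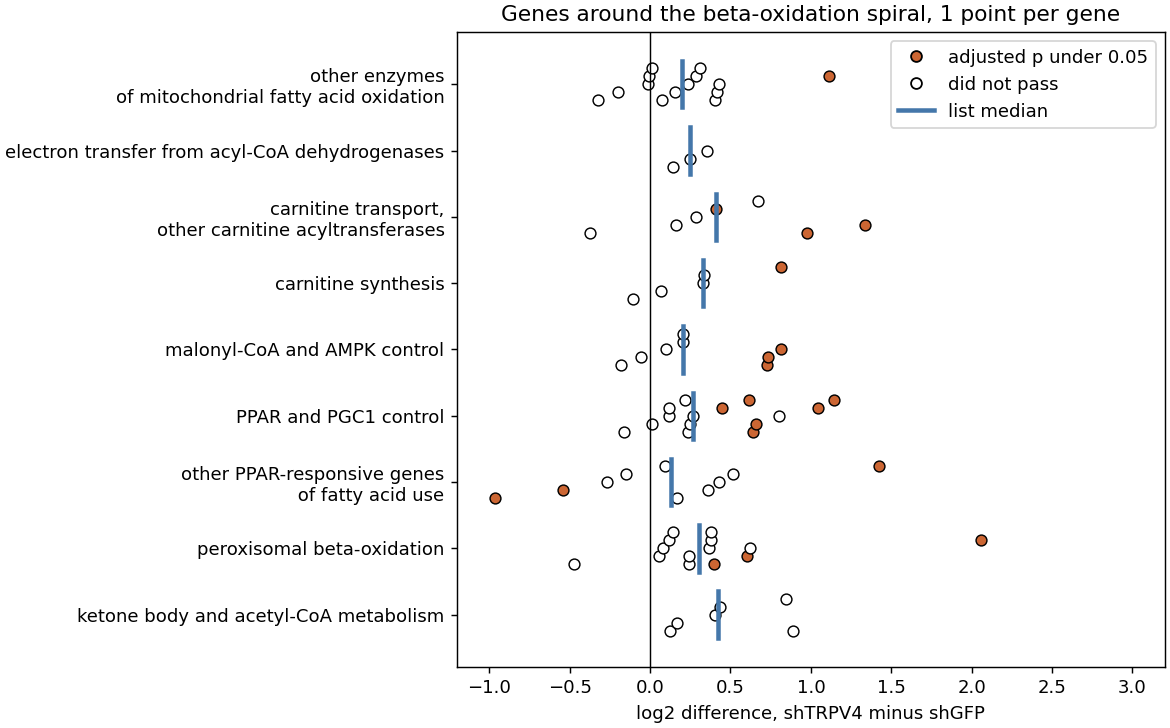
Log2 difference (shTRPV4 minus shGFP) of the 82 genes of the 9 lists, 1 point per gene on its brightest probe set, with filled points for an adjusted p under 0.05 and a vertical bar at each list's median. Every list median lies above 0, from 0.13 to 0.42, and the 2 filled points below 0 are Acot1 and Angptl4.

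Markers of fat cells and of their fibroblast-like precursors were both present on all arrays. Of 9 adipocyte markers 3 rose and 1 fell, and their differences ran from -1.77 to 1.90, with a median of 0.10, 5 positive and 3 negative. Their summed deposited intensity was 56425 to 57526 in the arrays labelled shGFP and 64254 to 67123.5 in those labelled shTRPV4. The brightest markers weigh most in this sum: Fabp4 alone read 18099 to 19625, with a difference of 0 after normalization. Of the 13 measured markers of preadipocytes and fibroblasts, limma called 7 lower and 0 higher (8 and 0 at an unadjusted p under 0.05), with a summed intensity of 86374 to 89706 against 72601 to 74075. No marker of either list was below the offset on all arrays. Of 10 macrophage markers 3 fell and 1 rose (summed intensity 977 to 1086 against 655 to 690.0), and 2 were below the offset on all arrays. Their differences had both signs, 6 positive and 4 negative, with a median of 0.12, and 3 were higher and 4 lower at an unadjusted p under 0.05. Csf1r was among those that fell (-0.85), but its other probe sets did not pass (-0.06 and -0.13). Of the brown adipocyte and myocyte markers, 1 of 6 each rose, and the brown fat gene Ucp1 read at most 19.6. The part of these shifts in the differences of the beta-oxidation genes was not tested, and in such bulk RNA fewer cells of a type and less RNA per cell cannot be told apart. The Trpv4 probe set 1417545_at read 43.7 and 93.8 against 80.1 and 79.5 (0.32, interval -0.55 to 1.19, adjusted p = 0.55), so the knockdown was not seen at this probe set, whose groups overlap, and shTRPV4 stands for the label throughout.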

How the data were processed

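Total RNA was hybridised, as biotin-labelled cRNA per the labels' protocols, to 4 Affymetrix mouse arrays. The authors deposited 1 linear intensity per probe set and array, and how they summarised, background-corrected and scaled it is not stated in the labels. Only these values were analysed, without detection calls, and precision is limited by having 2 arrays in each group.

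Array medians were 129.4 to 144.0. On the log2(intensity + 16) scale they spanned 0.138, above the limit of 0.1 set for use as deposited, so the values were quantile normalized. The offset makes fold changes of dim probe sets too small. limma 3.58.1 in R 4.3.3 (lmFit, eBayes) was fitted over all 22626 probe sets, with Benjamini-Hochberg adjustment over all of them, a threshold of 0.05, 2 residual and 1.8 prior degrees of freedom. The fit was tested on simulated data. A change is called only past that threshold.

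Platform annotation named 1 gene for 20380 probe sets, several for 691 and none here for 1555. Of the single-gene probe sets 20351 matched RefSeq gene IDs (GRCm38.p6), which changed 0 symbols. The members and lists were chosen with earlier results of these data known. All member probe sets are named, with the genes of the pathway lists past the threshold and a few fixed others. Cell type markers past the threshold are mostly given as counts. Alternatives were the values as deposited, median centring, offsets of 1 and 64, filters at the 25th and 50th percentile of mean level, an intensity trend, the probe sets of a list gene averaged, a replicate block and each array left out. Of the planned pairs Cpt1a against Cpt1b was not run.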

Additional observations from a re-analysis of the deposited data

How the results depend on the processing

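The differences of the 16 probe sets kept their direction under every alternative run, except that of Acadm, which was 0.0826 with median centring. The number of them called, 2, was 3 with the values as deposited, 2 with an offset of 1 and 4 with median centring. It was 5 with an offset of 64 and 7 with an intensity trend. With the 25th percentile filter it was 5 of the 14 left, and with the 50th percentile filter 9 of the 14 left. Every called probe set outside Cpt1a was higher under shTRPV4. Acads was called in each of these settings but the offset of 1, and Cpt2 1416772_at in each but that and the values as deposited. Hadha and Hadhb 1437172_x_at were called with the trend and the 50th percentile filter, and Acaa2 1428146_s_at and 1455061_a_at with that filter only. Over the whole array the count of 2240 of 22626 became 606 with an offset of 1, 4116 with 64, 4059 and 4874 with the 2 filters, and 4150 with the trend. The array's calls were 2170 higher and 1980 lower with the trend, and 2642 higher and 2232 lower with the 50th percentile filter. The filters leave fewer probe sets and genes to test, so their counts stand against smaller totals and larger background shares. For the pathway lists, 20 called genes became 8 with an offset of 1, 35 with 64, 33 and 38 with the filters and 37 with the trend, and 25 with the probe sets of a gene averaged in place of its brightest one. The median difference of the members was 0.276 with median centring. With the replicate block, limma called 0 members, 0 list genes and 0 probe sets (7 members and 6858 probe sets at an unadjusted p under 0.05). With any 1 array left out it also called 0 of each (4 to 9 members and 4543 to 5908 probe sets at an unadjusted p under 0.05). Each of those fits has 1 residual degree of freedom and, where an array is left out, takes the lone array to vary like the other group. Deviations of same-numbered arrays correlated at 0.119 over all probe sets, and nothing in the labels says that a number marks a shared culture or day. The causes of the other shifts in counts were not tested. Without detection calls, a difference near the offset of 16 has no known relation to background.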

Other observations

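Peroxisomes shorten fatty acids that mitochondria handle poorly, and 3 of the 14 peroxisomal beta-oxidation genes measured rose and 0 fell in limma, with a median of 0.30, and 7 were higher and 1 lower at an unadjusted p under 0.05. The thiolase gene Acaa1b rose from 59.1 and 54.2 to 280.2 and 268.9 (2.06, SE 0.08, limma adjusted p = 0.015). Its close paralog Acaa1a rose by 0.40 on 1456011_x_at (adjusted p = 0.049; not passed with the values as deposited or an offset of 1), a probe set that can read both, and its other probe set did not pass (0.19, adjusted p = 0.28). Abcd2, an importer of very long-chain acyl-CoA, rose by 0.60 (adjusted p = 0.036; not passed with the values as deposited or an offset of 1). The bifunctional enzyme gene Ehhadh read at most 14.0, below the offset (0.38, adjusted p = 0.23).

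All 6 genes measured for ketone body and acetyl-CoA metabolism had positive differences on their brightest probe sets, with a median of 0.42, and 0 of these passed in limma (adjusted p from 0.055 to 0.71), with 4 higher at an unadjusted p under 0.05. Among the 6, Bdh1 read at most 12.1, below the offset on every array, with overlapping groups (0.17). Its other probe set was negative (-0.14). The acetyl-CoA synthetase gene Acss2 had the lowest adjusted p (0.85, SE 0.15), followed by the mitochondrial thiolase gene Acat1 (0.41, SE 0.07, adjusted p = 0.055). Dimmer probe sets of both genes rose, that of Acss2 by 0.68 (adjusted p = 0.042) and those of Acat1 by 0.51 and 0.62 (adjusted p = 0.030 and 0.033).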
